A study of Mus musculus with 13 samples.

Results

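The genes described here encode the mTOR kinase, the subunits of its complexes, and the proteins that feed into or read out from it. The list holds 44 genes chosen by symbol from pathway knowledge, and all 44 were found among the 28183 genes of the kidney table, where 14637 genes had high enough values for a test, these 44 among them. In the table deposited for cultured cells, which lists only 2016 genes, 5 of the 44 were found. The study profiled by RNA-seq the kidneys of C57BL/6 mice with Pkd1 or Pkd2 deleted in tubule cells, which are models of polycystic kidney disease, and a kidney cell line after knockdown of the long noncoding RNA Hoxb3os.

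The Pkd1 knockout kidneys carried KSP/Cre+;Pkd1f/f and their controls KSP/Cre-;Pkd1f/f, both at postnatal day 10, with 2 libraries each. The Pkd2 knockout kidneys carried Pkhd1/Cre+;Pkd2f/f and their controls Pkhd1/Cre-;Pkd2f/f, both at postnatal day 20, again with 2 libraries each. All 4 groups therefore carried floxed alleles, and the controls differed from the knockouts in lacking Cre. KSP/Cre is driven by the promoter of kidney-specific cadherin and acts in tubule epithelium, and Pkhd1/Cre acts mainly in collecting ducts, so both leave other kidney cells with the gene intact. For the Pkd2 knockouts the genotype and description were followed, since the titles end in "(WT)". The mIMCD-3 line, from the mouse inner medullary collecting duct, was transfected with a gapmer against Hoxb3os (3 libraries) or a negative control gapmer (2 libraries), each at 10 nM, and harvested after 48 hours. Whether the libraries of a group came from separate animals or cultures is not said. In Pkd1 controls and in Pkd2 knockouts the libraries differed in sex. Xist, high in females, read 0.221 and 416 in Pkd1 controls and 1.74 and 449 in Pkd2 knockouts. Summed Y-linked genes read 155 and 10.4, and 169 and 0.0462. Libraries within each of these groups were thus not repeats of 1 animal. In Pkd1 knockouts Xist read 25.3 and 27.7 beside Y-linked sums of 149 and 183, and why both were present was not tested. The spread behind each p-value is that between libraries, which in Pkd1 knockouts and Pkd2 controls may be technical.

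mTOR is a serine/threonine kinase that works in a pair of complexes. mTORC1, which contains Raptor (Rptor), senses amino acids at the lysosome through the Rag GTPases and growth factors through PI3K, AKT, the TSC complex and the small GTPase Rheb, and it phosphorylates S6 kinases, the 4E-BP translation repressors, ULK1 and TFEB. mTORC2, which contains Rictor, phosphorylates AKT. In polycystic kidneys the pathway is known for raised mTORC1 activity in cyst-lining cells. That activity is a matter of phosphorylation, which RNA-seq does not measure, and every value below is an RNA level.

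Kidney values are CPM (read counts scaled to a common library size) after a further scaling by the authors, and the depth recovered from them ran from about 30700000 to 94400000 reads per library. Knockout kidneys of both models had more macrophage RNA: all 10 of the markers tested rose in each, and their summed value went from 43.4 to 49.8 in Pkd1 controls to 136 to 140 in knockouts, and from 50.5 to 50.6 in Pkd2 controls to 218 to 248 in knockouts. Of 10 proximal tubule markers, 9 fell in each model, and none of the 10 was at 0 in any group. Of 8 thick ascending limb and distal tubule markers, 6 fell in each, their sum going from 965 to 1200 in Pkd1 controls to 353 to 538 in knockouts and from 4390 to 4410 in Pkd2 controls to 917 to 1070 in knockouts. Fibroblast and smooth muscle markers summed to 987 to 1480 against 2480 to 2910 in the Pkd1 model (4 of 8 rose) and to 640 to 730 against 1540 to 1710 in the Pkd2 model (5 of 8 rose). Markers of injured tubule summed to 676 to 933 against 998 to 2470 (4 of 8 rose) and to 1210 to 1230 against 7840 to 10200 (7 of 8 rose). Spp1 made up most of each of these sums. It read 597 and 853 against 682 and 2120 in the Pkd1 model and 1180 and 1160 against 7510 and 9600 in the Pkd2 model. Vcam1 read 11.7 and 16.2 against 8.46 and 6.69 in the Pkd1 model, where none of the 8 was called lower. Mitosis markers summed to 169 to 176 against 214 to 281 (1 of 8 rose) and to 42.6 to 46.5 against 105 to 149 (8 of 8 rose). Lymphocyte markers were near 0, with a sum of at most 1.43. Collecting duct markers summed to 139 to 160 against 278 to 452, and to 214 to 248 against 252 to 285. Podocyte markers summed to 280 to 287 against 195 to 206, and to 163 to 167 against 140 to 141. Fat and adrenal markers summed to 3.89 to 13 against 5.25 to 20.6, and to 27.2 to 163 against 0.832 to 7.26. The adrenal genes Hsd3b1 and Star read 1.51 and 1.3 in Pkd2 control replicate 1 and 63.5 and 35.9 in replicate 2. Mitochondrial genes held 27.39% and 38.67% of the summed values in Pkd1 controls and 22.05% and 22.5% in knockouts. In the Pkd2 model they held 41.44% and 41.27% in controls and 34.73% and 30.11% in knockouts. The libraries also differed in small RNA, whose share of the summed values ran from 6.19% in Pkd2 knockout replicate 2 to 28.3% in Pkd1 knockout replicate 1, and Y-linked genes and Xist showed that sex was not balanced across groups. Pkd2 knockout replicate 2 stood apart in transcript length as well: relative to replicate 1, the median protein-coding gene with under 1000 bases of exon was at -0.69 on the log2 scale (601 genes), and the median gene with over 4000 bases at 0.20 (5223 genes). For genes under 1000 bases, replicate 2 minus replicate 1 was -0.317 in Pkd1 knockouts, 0.205 in Pkd1 controls and 0.01 in Pkd2 controls. The part of any of these in the results below was not tested, and since the kidneys were ground whole, fewer cells of a type and less RNA per cell cannot be told apart. Pkd1 read 31.1 and 22.7 in its controls and 24.1 and 26 in Pkd1 knockouts, and Pkd2 read 69 and 61.2 in its controls and 50.7 and 53.3 in Pkd2 knockouts. These are whole-gene levels, and since exons were not analysed here they do not check the deletions.

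Few mTOR pathway genes were called as changed in the knockout kidneys, and the kinase itself was not among those called. In the Pkd1 model Eif4ebp1 and Pik3cb rose and Eif4ebp2 fell. In the Pkd2 model Akt1s1, Irs1 and Deptor fell and none rose. Here and below a call means an adjusted p (limma, Benjamini-Hochberg over all 14637 genes tested) under 0.05, and differences are on the log2(value + 1) scale with their standard error. With 2 of the 44 higher and 1 lower in the Pkd1 model, the count stood beside 5.11% higher and 5.48% lower among all genes tested. In the Pkd2 model, 0 of the 44 were higher (0 also in edgeR and DESeq2) and 3 lower, beside 9.54% and 8.13% of all genes, so in each direction the share of members called was near or below the background and is no result about the pathway as a whole. At an unadjusted p below 0.05, 9 members passed in the Pkd1 model and 13 in the Pkd2 model, beside 27.3% and 33.1% of all genes. The counts from other tools given below stand beside calls of 10.5% and 16.3% of all genes in edgeR and 15.1% and 20.7% in DESeq2. The median log2 difference over the members was -0.15 in the Pkd1 model and -0.21 in the Pkd2 model, beside -0.00 and -0.01 over all genes. Rescaling without mitochondrial genes and small RNAs moved the median of all genes in the Pkd2 model to 0.10 and that of the members to -0.12. Leaving out Pkd1 control replicate 2, Pkd1 knockout replicate 1 or Pkd1 knockout replicate 2 gave members' medians of -0.10 in the Pkd1 model, and leaving out Pkd2 control replicate 2 gave -0.13 in the Pkd2 model. The 2 libraries of the knockout group lay wholly below both controls for 15 members in the Pkd1 model and 20 in the Pkd2 model, beside 29.2% and 30.9% of all genes, and wholly above for 6 and 7, beside 29.1% and 31.9%.

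**Figure D1:**
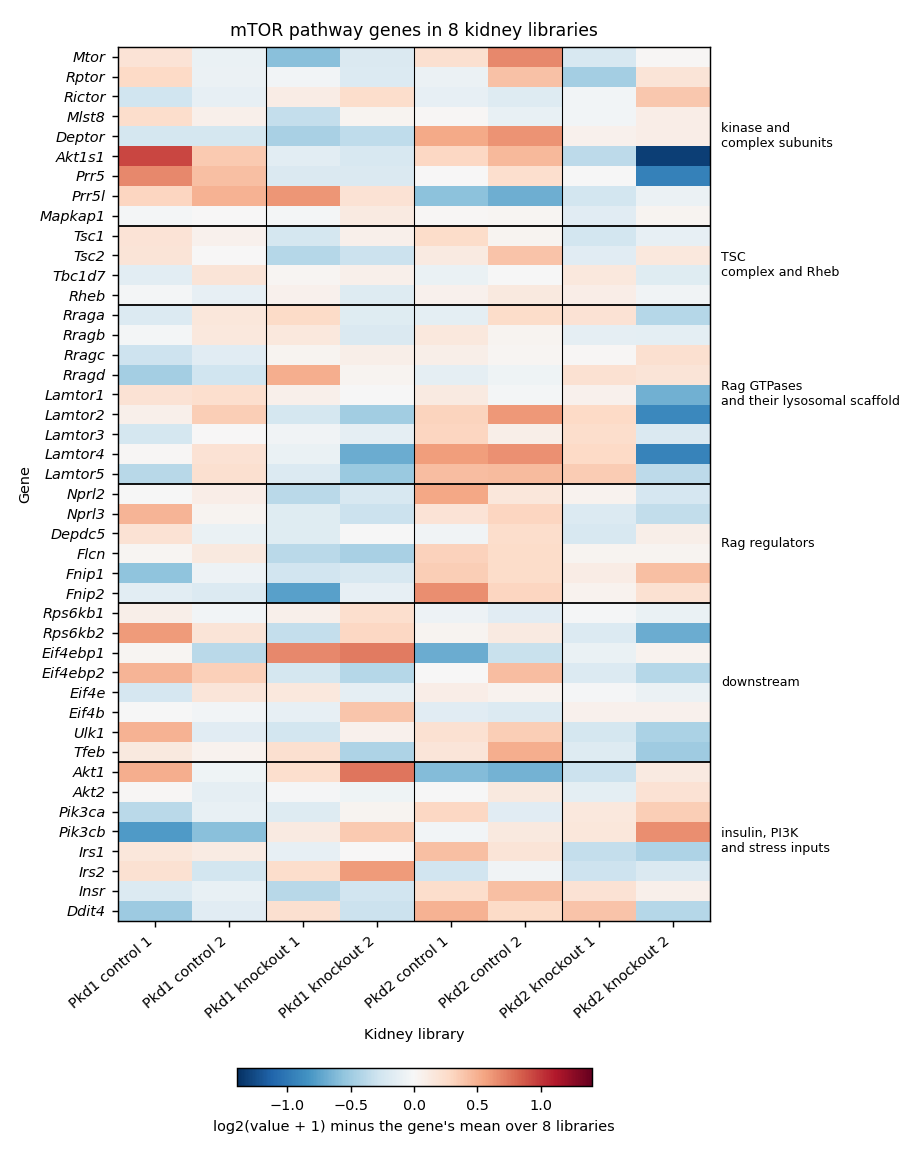
Rows are the 44 mTOR pathway genes by role and columns the 8 kidney libraries. Colour gives log2(value + 1) minus the gene's mean over the 8 libraries (red higher, blue lower). Akt1s1, Lamtor2 and Lamtor4 are lowest in Pkd2 knockout replicate 2, and Eif4ebp1 is highest in the 2 Pkd1 knockout libraries.

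Across both models, 12 members lay below the controls in each (Mtor, Deptor, Akt1s1, Prr5, Lamtor2, Lamtor4, Nprl2, Nprl3, Flcn, Eif4ebp2, Irs1 and Insr), beside 19.4% of all genes. Above the controls in both lay 4, Rictor, Rragd, Eif4ebp1 and Pik3cb, beside 19.8% of all genes. These are counts of libraries that do not overlap, and most of these genes did not pass the test. The difference between the knockout effects was tested in the same fit: 0 of 44 members differed in limma, 0 also at an unadjusted p below 0.05 (8.25% of all genes) and 0 in edgeR and DESeq2 (0.0342% and 1.26% of all genes), beside 0.00683% of all genes (1 gene, lower, while quantile scaling called 4 higher and 4 lower, and leaving out mitochondrial genes and small RNAs 7 higher and 12 lower). A call in 1 model and not in the other is thus not shown to be a difference between them.

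Of the 9 subunits of the kinase complexes, 2 fell in the Pkd2 model, none was called in the Pkd1 model (2 at an unadjusted p below 0.05, 0 in edgeR, 1 in DESeq2) and none rose in either. Mtor, the catalytic subunit, read 26.8 and 21.8 in Pkd1 controls and 15.3 and 20.2 in knockouts, and 27.5 and 37.8 in Pkd2 controls and 19.9 and 23.6 in knockouts. Both knockout groups lay below their controls, but at log2 differences of -0.44 ± 0.219 (SE, adjusted p = 0.24) and -0.55 ± 0.219 (adjusted p = 0.12) neither passed. The Mtor difference was -0.25 without Pkd1 knockout replicate 1 and -0.33 without Pkd2 control replicate 2. Rptor, the scaffold that brings substrates to mTORC1, read 34.6 and 26.7 in Pkd1 controls and 27.5 and 24.6 in knockouts, and 26.6 and 37.9 in Pkd2 controls and 20.1 and 32.3 in knockouts, with groups that overlapped in both models. Rictor, the corresponding scaffold of mTORC2, read 15 and 16.9 against 19.9 and 22 in the Pkd1 model and 16.9 and 16.1 against 17.9 and 24.3 in the Pkd2 model. Every Rictor knockout library lay above its controls, at 0.37 ± 0.184 (adjusted p = 0.23) and 0.32 ± 0.184 (adjusted p = 0.27). The Rictor difference for Pkd2 was 0.10 without knockout replicate 2, the library in which genes with over 4000 bases of exon were high (Rictor has 9312), and 0.53 without knockout replicate 1.

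Akt1s1 (ENSMUSG00000011096.14, chr7:44848991-44855421 in mm10), whose product PRAS40 is an mTORC1 inhibitor and an AKT substrate, fell in the Pkd2 model. It read 31.7 and 35.7 in Pkd2 controls and 19.8 and 9.71 in knockouts, a log2 difference of -1.22 ± 0.305 (adjusted p = 0.027). The second knockout library was the lowest of all 8, and without it the Akt1s1 difference was -0.74. In the Pkd1 model it read 50 and 33.4 in controls and 23.2 and 21.9 in knockouts, below in both libraries at -0.83 ± 0.305 but not called (adjusted p = 0.12). In the authors' deposited table Akt1s1 was the only one of the 44 with an adjusted p below 0.05, in the Pkd2 model (log2 control minus knockout 1.19, adjusted p = 0.016), beside 10.3% of all genes there and 0 members, beside 7.94% of genes, for Pkd1.

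Deptor (ENSMUSG00000022419.13, chr15:55112317-55259271), an inhibitory subunit of both complexes, read 40.9 and 43.7 in Pkd2 controls and 29.3 and 29.9 in knockouts. The groups did not overlap, and the fall of -0.50 ± 0.148 passed narrowly (adjusted p = 0.049). That call held in 2 of the 17 other settings. Among the remaining subunits, Prr5 of mTORC2 lay below its controls in both models, at 11.4 and 9.45 against 5.78 and 5.78 and at 6.83 and 8.16 against 6.73 and 3.05, without a call. Mapkap1, another mTORC2 subunit, stayed between 38.2 and 46.6 in all 8 libraries, and Mlst8, shared by both complexes, between 6.41 and 10.1.

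None of the 4 genes of the TSC complex and Rheb was called in either model in limma, edgeR or DESeq2, and 1 in the Pkd1 model and 0 in the Pkd2 model passed at an unadjusted p below 0.05. Tsc1 read 66.4 and 60.8 in Pkd1 controls and 48.8 and 61.2 in knockouts, and 69.6 and 59.8 in Pkd2 controls and 48.6 and 53.6 in knockouts. Tsc2, the subunit with GTPase-activating function toward Rheb, read 15.1 and 13.3 against 9.76 and 10.5 in the Pkd1 model, a difference of -0.45 ± 0.185 (adjusted p = 0.16), and 14.5 and 17.8 against 11.7 and 14.8 in the Pkd2 model. Rheb, the activator of mTORC1, lay between 17.5 and 22.1 in all 8 libraries, and its knockout differences of 0.01 ± 0.162 and -0.08 ± 0.162 changed sign with scaling. Tbc1d7, the third TSC subunit, lay between 3.40 and 4.57.

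The 9 Rag GTPases and Ragulator subunits, which hold mTORC1 at the lysosome, included no call in either model in limma or edgeR, with 1 and 2 at an unadjusted p below 0.05 and 1 call in DESeq2 (Rragd, Pkd1 model). Rragd (ENSMUSG00000028278.12, chr4:32983037-33022180), whose gene is a target of TFEB and related factors, came closest. It read 35.3 and 40.7 in Pkd1 controls and 70.6 and 51 in knockouts, above in both libraries at 0.65 ± 0.190 (adjusted p = 0.063). In the Pkd2 model Rragd read 45.3 and 47.4 in controls and 57.6 and 56.3 in knockouts, at 0.29 ± 0.190 (adjusted p = 0.32). Lamtor2 and Lamtor4, which form part of the Ragulator scaffold, lay below their controls in both models without a call. Lamtor4 read 15 and 17.2 against 13.9 and 8.82 in the Pkd1 model and 22.8 and 23.7 against 18.3 and 7.28 in the Pkd2 model, at -0.94 ± 0.360 (adjusted p = 0.11). Lamtor2 read 26.4 and 32.6 against 25.7 and 10.8 in the Pkd2 model. Both have under 1000 bases of exon (734 for Lamtor2, 877 for Lamtor4). Against replicate 1, that length class was low in Pkd2 knockout replicate 2 and, by less, in Pkd1 knockout replicate 2. The part of length in these values was not tested. The library with the lowest value was Pkd2 knockout replicate 2 for 13 of the 44 members, and Pkd1 control replicate 1 for 9. Pkd2 control replicate 2 was the highest for 11. The matching shares over all genes were not determined, so these counts are no result about the members.

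The 6 regulators of the Rags held no call in limma, edgeR or DESeq2 (2 in each model at an unadjusted p below 0.05), and 5 of them in the Pkd1 model and 6 in the Pkd2 model had a difference below 0. Flcn, encoding folliculin, the activator of RagC and RagD, read 20.7 and 22.4 in Pkd1 controls and 15.4 and 14.6 in knockouts, at -0.49 ± 0.148 (adjusted p = 0.070), and 25.7 and 24.5 against 20.8 and 20.9 in the Pkd2 model. Nprl3, of the GATOR1 complex that inactivates RagA and RagB, read 19.6 and 21.3 in Pkd2 controls and 14.9 and 13.2 in knockouts, at -0.52 ± 0.189 (adjusted p = 0.093). Fnip1, a folliculin partner, overlapped with its controls in both models, at 14.3 and 20.5 against 17.8 and 18.4 and at 27.7 and 26.1 against 23.3 and 29.4.

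**Figure D2:**
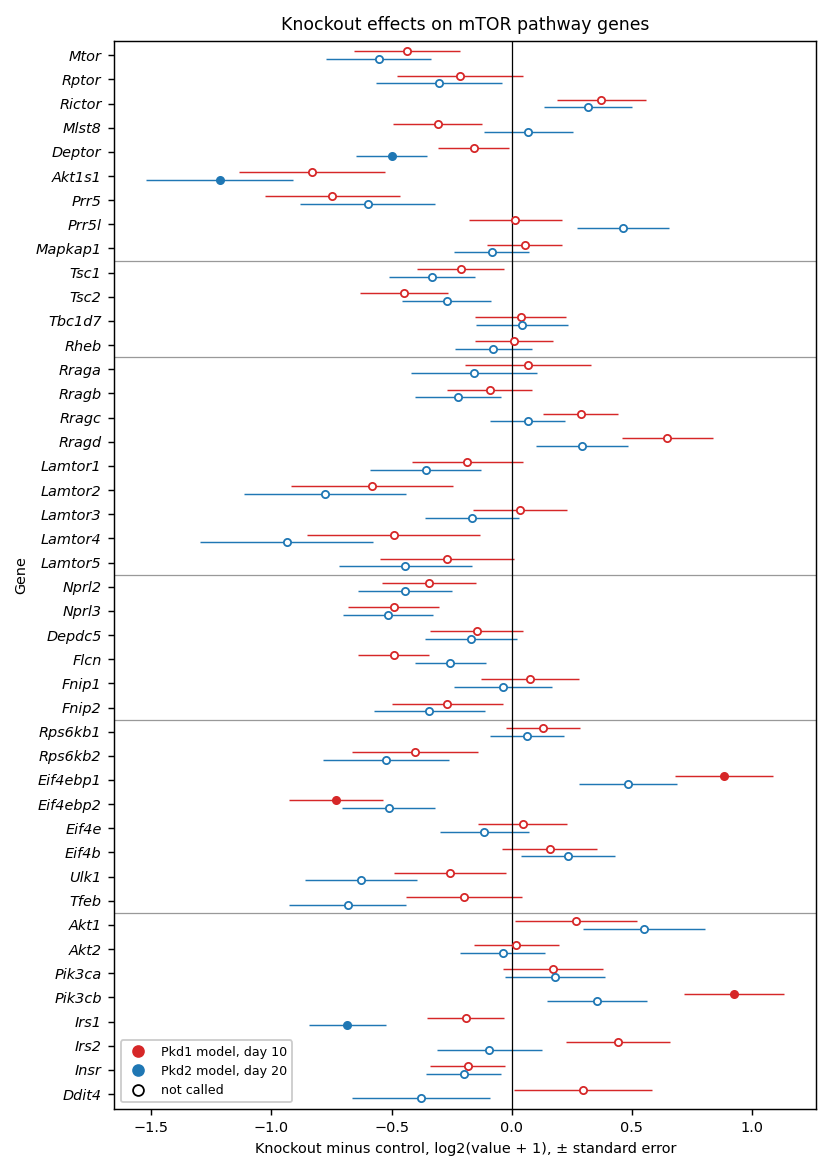
Each row is a gene in the order of the roles, and the horizontal axis is knockout minus control on the log2(value + 1) scale with its standard error (2 libraries a group). Filled points passed the test, 3 in red for the Pkd1 model and 3 in blue for the Pkd2 model, and the differences run from -1.22 (Akt1s1, Pkd2) to 0.93 (Pik3cb, Pkd1).

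Of the 8 genes downstream of the kinase, 1 rose and 1 fell in the Pkd1 model, and they encode the same kind of protein. Eif4ebp1 (ENSMUSG00000031490.5, chr8:27260327-27275656) and Eif4ebp2 (ENSMUSG00000020091.12, chr10:61432497-61452669) encode 4E-BP1 and 4E-BP2, which block the cap-binding factor eIF4E until mTORC1 phosphorylates them. Eif4ebp1 read 5.86 and 4.2 in Pkd1 controls and 9.78 and 10.2 in knockouts, a rise of 0.88 ± 0.205 (adjusted p = 0.030). Eif4ebp2 read 12.7 and 11.4 in Pkd1 controls and 7.29 and 6.48 in knockouts, a difference of -0.73 ± 0.195 (adjusted p = 0.048). The paralogs thus moved in opposite directions in the same kidneys, with no overlap between groups for either. The Pkd2 model gave the same order without a call: Eif4ebp1 read 3.17 and 4.43 against 5.35 and 5.97, at 0.48 ± 0.205 (adjusted p = 0.14), and Eif4ebp2 8.86 and 12.3 against 7.62 and 6.45, at -0.51 ± 0.195 (adjusted p = 0.10). Per kilobase of exon, the scale on which genes can be set beside each other, Eif4ebp1 ranged from 1.59 to 5.11 over the 8 libraries and Eif4ebp2 reached at most 2.2. The autophagy kinase Ulk1 and the lysosomal transcription factor Tfeb were below both controls in the Pkd2 model, at -0.63 ± 0.233 (adjusted p = 0.096) and -0.68 ± 0.242 (adjusted p = 0.085). Rps6kb1, encoding S6 kinase 1, stayed between 23.1 and 30.6.

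Of the 8 genes for insulin, PI3K and stress inputs, 1 rose in the Pkd1 model and 1 fell in the Pkd2 model. Pik3cb (ENSMUSG00000032462.12, chr9:99036654-99140621), encoding the p110-beta catalytic subunit of PI3K, read 6.03 and 7.08 in Pkd1 controls and 12.2 and 14.6 in knockouts, a rise of 0.93 ± 0.208 (adjusted p = 0.027). In the Pkd2 model Pik3cb read 10.8 and 12.3 against 12.5 and 18.0, at 0.36 ± 0.208 (adjusted p = 0.27), and those day 20 controls lay near the day 10 knockouts. Pik3ca, encoding p110-alpha, overlapped in both models, with values from 56.8 to 94.1. Irs1 (ENSMUSG00000055980.2, chr1:82233101-82291416), an adaptor that links the insulin receptor to PI3K, read 23.1 and 19.4 in Pkd2 controls and 13.3 and 12.3 in knockouts, a difference of -0.68 ± 0.161 (adjusted p = 0.022). Irs1 in the Pkd1 model read 19.1 and 18.4 against 15.6 and 17.0, at -0.19 ± 0.161 (adjusted p = 0.49). Its paralog Irs2 read 5.11 and 3.41 against 5.23 and 6.98 in the Pkd1 model, at 0.44 ± 0.217 (adjusted p = 0.23), and 3.38 and 4.10 against 3.31 and 3.56 in the Pkd2 model. Akt1 read 33.0 and 31.6 in Pkd2 controls and 41.1 and 55.4 in knockouts, at 0.55 ± 0.254 (adjusted p = 0.17).

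**Figure D3:**
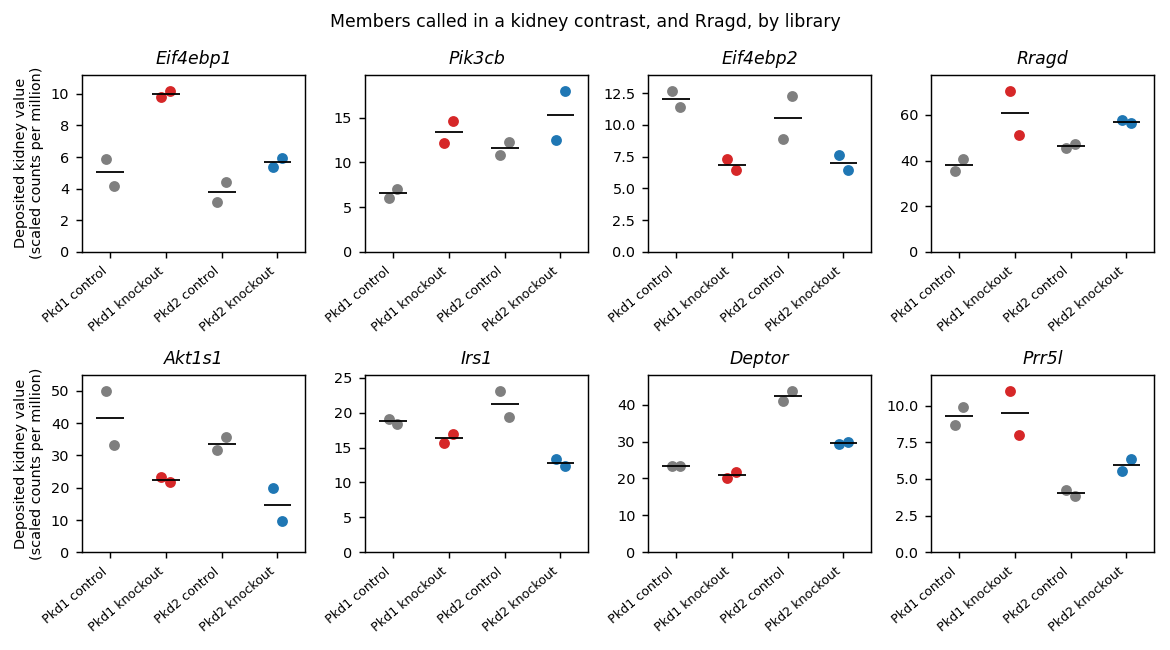
Each panel is a gene, the vertical axis its kidney value (scaled CPM, from 0), points the 2 libraries of each group and lines their mean. Eif4ebp1 reads 9.78 and 10.2 in Pkd1 knockouts against at most 5.97 elsewhere, while Deptor and Prr5l separate the 2 control groups.

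All calls rest on 2 libraries a group. The sex covariate was set by the Y-linked sums and counted both Pkd1 knockouts as male, despite their Xist values. With sex as a covariate the Eif4ebp1 call in the Pkd1 model ended (0.82 ± 0.231, adjusted p = 0.062). The Deptor call in the Pkd2 model ended too (-0.49 ± 0.158, adjusted p = 0.068). That setting added falls of Akt1s1 and Prr5 in the Pkd1 model, and of Prr5, Nprl3 and Ulk1 in the Pkd2 model. Akt1s1 in the Pkd2 model was then at -1.60 ± 0.181 (adjusted p = 0.0045). Without the filter on low values the 3 Pkd1 calls and that of Akt1s1 ended, and with each model fitted alone those of Akt1s1, Irs1 and Deptor ended. Leaving out any 1 of the 4 Pkd1 libraries ended the Pkd1 calls of Eif4ebp1, Eif4ebp2 and Pik3cb, with adjusted p up to 0.15, 0.23 and 0.16. In the Pkd2 model, leaving out either control or knockout replicate 2 ended the calls of Akt1s1, Irs1 and Deptor, and leaving out knockout replicate 1 gave 6 falls (Akt1s1, Prr5, Lamtor1, Lamtor2, Lamtor4 and Irs1). All groups share 1 estimate of the spread, and the Pkd1 calls moved with the Pkd2 libraries too: without either Pkd2 control only Eif4ebp1 was called, and without either Pkd2 knockout 7 members were (Akt1s1, Prr5, Rragd and Flcn besides the 3).

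The control kidneys of the models also allow a comparison of day 20 with day 10, whose libraries are those of the knockout contrasts. Age and the floxed gene cannot be told apart in it, and sex differed too. Xist read 346 and 350 in the day 20 controls, both female, and 0.221 and 416 in the day 10 controls. Deptor was higher and Prr5l lower in the day 20 controls. Deptor read 23.4 and 23.4 at day 10 and 40.9 and 43.7 at day 20, a difference of 0.83 ± 0.148 (adjusted p = 0.0091). Prr5l (ENSMUSG00000032841.13, chr2:101714285-101883027), encoding an mTORC2-associated protein, read 8.66 and 9.93 at day 10 and 4.24 and 3.86 at day 20, a difference of -1.03 ± 0.193 (adjusted p = 0.011). With sex as a covariate the differences were 0.82 ± 0.158 for Deptor (adjusted p = 0.027) and -1.11 ± 0.209 for Prr5l (adjusted p = 0.025). Both calls ended when any 1 of the 4 control libraries was left out, and without either Pkd2 knockout library Akt1 and Pik3cb were called as well (4 in all). With 1 of 44 higher and 1 lower, the counts stood beside 5.04% and 7.26% of all genes. At an unadjusted p below 0.05, 8 members passed, beside 27.4% of all genes in either direction. Members called were 3 in edgeR and 4 in DESeq2, beside 12% and 15.6% of all genes. For 18 members the day 20 controls lay wholly above and for 8 wholly below, beside 31.1% and 31.2% of all genes. Akt1 was lower at day 20 by count of libraries, 33.0 and 31.6 against 72.6 and 48.6, without passing in limma (adjusted p = 0.061). It was called in DESeq2 (adjusted p = 0.015), with quantile scaling and after rescaling without mitochondrial genes and small RNAs. Pik3cb lay above at 0.73 ± 0.208, with an adjusted p of 0.054 in limma, 0.044 in edgeR and 0.020 in DESeq2. The folliculin partners Fnip1, at 0.62 ± 0.203 (adjusted p = 0.084), and Fnip2, at 0.64 ± 0.231 (adjusted p = 0.11), lay above too. Of all calls in this contrast 41.0% were higher, and 28.6% once mitochondrial genes and small RNAs were left out. That scaling moved the median of all genes by -0.13, and the members' median to -0.03. All 8 mitosis markers were lower in the day 20 controls, with sums of 169 to 176 at day 10 and 42.6 to 46.5 at day 20. Fat and adrenal markers summed to 3.89 to 13 at day 10 and 27.2 to 163 at day 20. The part of either list in these differences was not tested.

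Among kidney levels per kilobase of exon, taken as the median over the 8 libraries, the Ragulator subunits Lamtor5 (33.5, range 22.5 to 44.9) and Lamtor2 (32.6, range 14.7 to 44.4) and the translation factor Eif4b (22, range 19.6 to 29.5) stood highest. Their ranges overlapped, and in Pkd1 knockout replicate 2 Akt1 (31.9) and Eif4b (29.5) stood above Lamtor5 (22.5) and Lamtor2 (20). The X-linked Rragb (0.441) and the insulin adaptor Irs2 (0.606) stood lowest. Within the Rag pairs, Rraga (5.63, range 4.07 to 6.80) exceeded Rragb (0.319 to 0.531) in every library. Rragc (13, range 10.3 to 14.9) and Rragd (9.51, range 6.82 to 13.6) overlapped. The kinase Mtor stood at 2.58, Rptor at 4.11 and Rictor at 1.87, with ranges of 1.74 to 4.30, 3.05 to 5.75 and 1.61 to 2.61 that overlapped between neighbours.

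**Figure D4:**
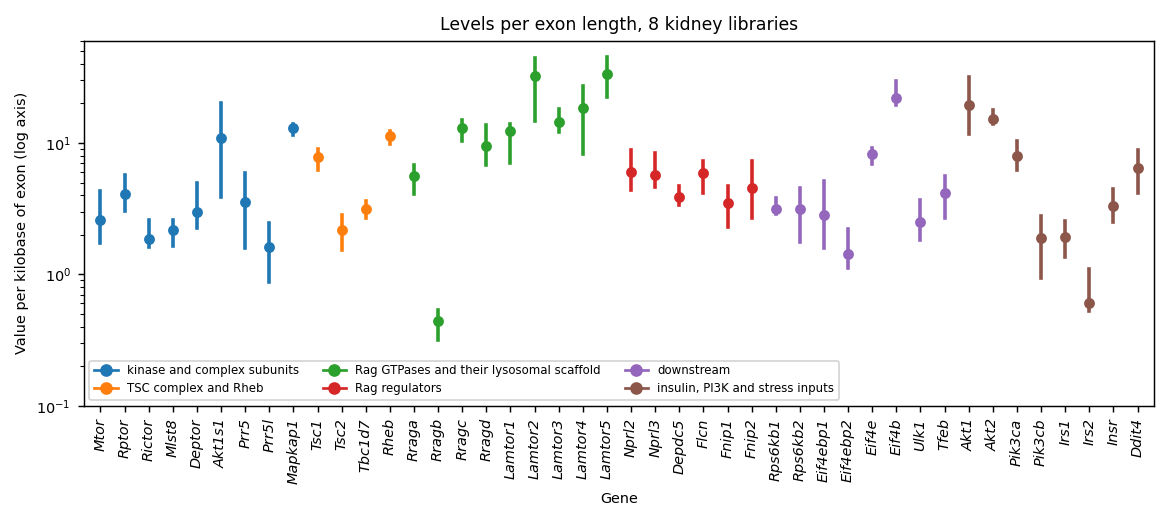
Points are medians and bars the lowest to highest of 8 kidney libraries for each gene, on a log axis of kidney value per kilobase of exon, coloured by role. Lamtor5, at 33.5, and Rragb, at 0.441, mark the ends of the range of medians.

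Genes around the pathway were taken from 7 further lists. Their counts stand beside 5.11% of all genes higher and 5.48% lower in the Pkd1 model. The shares were 9.54% and 8.13% in the Pkd2 model and 5.04% and 7.26% in the control contrast. In the amino acid list of 18 genes, 1 rose and 2 fell in the Pkd1 model and 2 rose and 2 fell in the Pkd2 model, of 17 tested. The partners of one amino acid transporter went opposite ways. Slc7a5, its light chain, read 1.52 and 1.18 in Pkd1 controls and 5.38 and 6.39 in knockouts (1.55 ± 0.212, adjusted p = 0.0042) and rose in the Pkd2 model by 0.75 ± 0.212 (adjusted p = 0.042). Slc3a2, its heavy chain, read 89.4 and 79.5 against 41.2 and 54.7 in the Pkd1 model, and its differences were -0.82 ± 0.191 (adjusted p = 0.031) and -0.82 ± 0.191 (adjusted p = 0.021). Castor2, a gene of the arginine sensor family listed under the older symbol Gatsl2, was lower in both models (-0.76 ± 0.182, adjusted p = 0.032, and -0.64 ± 0.182, adjusted p = 0.042). Lars, the leucyl-tRNA synthetase, rose in the Pkd2 model (0.73 ± 0.161, adjusted p = 0.017).

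In the PI3K-AKT list, 17 of 18 genes were tested, with 1 rise and 3 falls in the Pkd1 model and 3 rises and 2 falls in the Pkd2 model. The growth factor Igf1 fell in both (-1.4 ± 0.246, adjusted p = 0.010, and -0.89 ± 0.246, adjusted p = 0.039), as did Igf2 (-1.14 ± 0.181, adjusted p = 0.0066, and -0.73 ± 0.181, adjusted p = 0.027). The lipid phosphatase gene Inpp4b fell in the Pkd1 model (-0.92 ± 0.168, adjusted p = 0.012). In the Pkd2 model Pik3cg (1.86 ± 0.224, adjusted p = 0.0016) and Pik3cd (1.23 ± 0.248, adjusted p = 0.012), PI3K subunits that leukocytes express strongly, rose. In the Pkd1 model Pik3cg was at 0.82 ± 0.224 (adjusted p = 0.052, called in DESeq2) and Pik3cd at 0.47 ± 0.248 (adjusted p = 0.26). The macrophage markers given above rose in both models, and their part in these values was not tested. The day 20 controls were lower in Igf2 (-3.05 ± 0.181, adjusted p = 2e-04) and Grb10 (-1.16 ± 0.197, adjusted p = 0.0074).

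Of 14 energy and stress genes, only Prkab2, a regulatory subunit of AMPK, was called in limma in the knockouts, higher in both (0.69 ± 0.160, adjusted p = 0.029, and 0.87 ± 0.160, adjusted p = 0.0085). Prkaa2, an AMPK catalytic subunit, was called lower in the Pkd2 model in edgeR (adjusted p = 0.048) and DESeq2 (adjusted p = 0.042) and not in limma. In the control contrast Prkaa2 was higher (0.83 ± 0.184, adjusted p = 0.021) and Trp53 lower (-0.83 ± 0.193, adjusted p = 0.026). Of 15 translation genes, Rps6, the ribosomal protein that S6 kinase phosphorylates, rose in the Pkd1 model (0.76 ± 0.198, adjusted p = 0.045, not called in edgeR) and Eef2k, the elongation factor 2 kinase, in the Pkd2 model (0.99 ± 0.256, adjusted p = 0.030). Of the 20 TFEB family and lysosome genes tested, 1 rose and 2 fell in the Pkd1 model, 1 rose in the Pkd2 model and 1 was lower in the day 20 controls. The protease Ctsd rose in both models, from 232 and 231 to 409 and 521 in the Pkd1 model and from 215 and 220 to 472 and 537 in the Pkd2 model. The hexosaminidase subunit Hexa fell in the Pkd1 model (-0.87 ± 0.172, adjusted p = 0.016) and was lower in the day 20 controls (-0.74 ± 0.172, adjusted p = 0.025). The list of 14 autophagy initiation genes and that of 6 genes for assembly of the kinase held no call in limma or edgeR in any of the 4 contrasts. At an unadjusted p below 0.05 the first had 0, 1, 0 and 2 genes and the second 0, 0, 0 and 1 (Pkd1, Pkd2, difference and controls), and DESeq2 called 1 autophagy gene in the Pkd2 model and 1 in the controls.

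In mIMCD-3 cells 5 of the 44 genes stood in the authors' deposited table, which lists only genes they called at an adjusted p below 0.05. Fnip1, Rragd and Rptor were lower and Irs2 and Eif4ebp1 higher with the Hoxb3os gapmer, beside 44.4% higher and 55.6% lower among its 2016 genes. Because the table is a selection, no test of these 5 is made here, and the other 39 genes, Mtor, Rictor, Tsc1, Tsc2 and Rheb among them, were not analysed in the cells. The target Hoxb3os itself has no row in the table. The gapmer is a short antisense oligonucleotide that directs RNase H to cleave the RNA it pairs with. Its sequence and the RNA sequence that it pairs with (written as DNA) are printed whole in capitals, to let the members be searched for them:
Hoxb3os gapmer: ATTACTGCTTCTTCCA
complement in Hoxb3os: TGGAAGAAGCAGTAAT

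All 16 bases of the complement occur in the annotated Hoxb3os transcript, and the longest stretch shared with a mature transcript of a member was shorter for all 44. Among the 5 genes of the cell table the longest stretch was 10 bases in Rptor (AGAAGCAGTA), 8 in Irs2 (AGCAGTAA), 7 in Fnip1 and in Rragd and 6 in Eif4ebp1. A stretch of at least 10 bases occurs in 7.99% of 21877 protein-coding genes and of at least 7 in 89.2%. Introns, where a gapmer can also pair, were not analysed.

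Fnip1 (chr11:54438199-54518235, ENSMUSG00000035992) read 5474 and 5847 normalised counts with the control gapmer and 3609, 3466 and 3460 with the Hoxb3os gapmer. The groups did not come near each other, and the mean fell from 5661 to 3512, a log2 difference of -0.69 ± 0.046 (SE). The authors' deposited table gives Fnip1 a moderated log2 change of -0.65 with an adjusted p of 1.7e-42, the eighth smallest in it. Rragd, which folliculin and its Fnip partners act on as part of the Rag dimer, read 456 and 586 with the control and 385, 316 and 366 with the gapmer, a difference of -0.54 ± 0.10 that was -0.36 without control replicate 2 and -0.35 with quantile scaling (authors' deposited table, -0.38, adjusted p = 4e-04).

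Rptor (chr11:119602905-119899576) read 3032 and 3118 with the control and 2479, 2727 and 2716 with the gapmer, a difference of -0.22 ± 0.051 (authors' deposited table, -0.20, adjusted p = 0.0016). Irs2 (chr8:10986980-11008458) read 827 and 897 with the control and 1037, 1164 and 1136 with the gapmer, at 0.37 ± 0.068 (authors' deposited table, 0.31, adjusted p = 2.2e-04). Eif4ebp1 read 2129 and 2014 with the control and 2471, 2445 and 2443 with the gapmer, at 0.24 ± 0.051 (authors' deposited table, 0.23, adjusted p = 2.5e-04). The median size of change over the table was 0.23. No overlap of groups is no support here, since 99.9% of the table's genes show none.

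**Figure D5:**
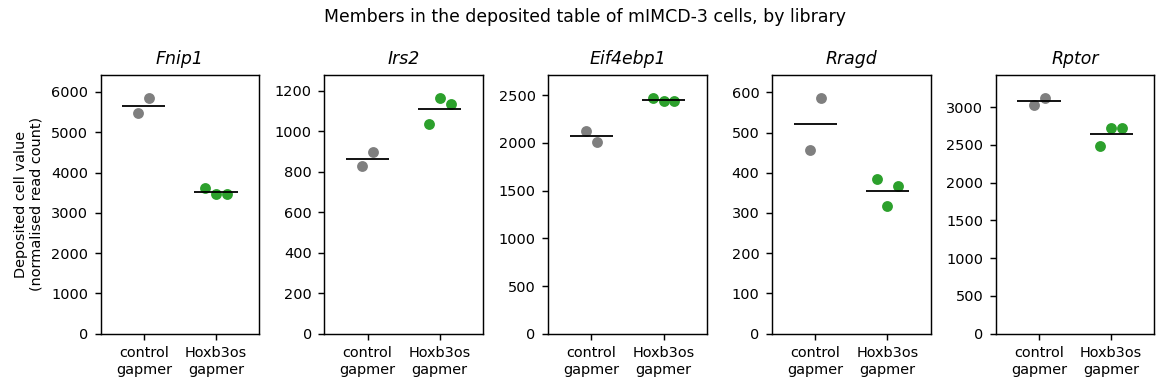
Each panel is a gene, the vertical axis its normalised read count (from 0), points the 2 control and 3 Hoxb3os gapmer libraries, and lines their mean. Fnip1 goes from a mean of 5661 to 3512, Eif4ebp1 and Irs2 are higher with the gapmer, and Rptor and Rragd lower.

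Eif4ebp1 was higher in Pkd1 knockout kidneys and in gapmer-treated cells, and Rragd lay above its controls in knockout kidneys and below them in the cells. These are separate experiments on tissue and on cells, and no test joins them. From the 7 further lists, the table held Slc3a2 (0.17 ± 0.044) and Lars (0.15 ± 0.043), both higher, with Sec13 and Sesn2 higher and Sesn1 and Sesn3 lower among 6 of the 18 amino acid genes. Of the translation list 7 of 15 were present, led by the translation repressor Pdcd4 at -0.39 ± 0.053 (authors' deposited table, adjusted p = 1.3e-09), with 5 lower and 2 higher. Of the 21 TFEB family and lysosome genes 5 were present. All 5 were lower, among them Lamp2 at -0.30 ± 0.043 (authors' deposited table, adjusted p = 2.1e-10), Psap, Atp6v0d1 and Hexa. These directions stand beside 44.4% higher and 55.6% lower among all 2016 genes listed for the cells.

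Promoters of 300 bases, from 250 before to 50 after each RefSeq start in GRCm38.p6, were searched on both strands for motifs tied to the pathway. Of the 44 genes 39 had a promoter there, 50 promoters in all. The E-box CACGTG, bound by the TFEB family, by MYC and by other factors, occurred in 10 of these 50 promoters (Eif4e, Fnip1, Irs1, Irs2, Lamtor1, Lamtor4, Rheb, Rragb, Rragc and Tbc1d7), against 7.15% of 32851 promoters. The longer TCACGTGA, which contains it, occurred in none of the 50 and in 0.974% of all. The ATF4-type element TGATGNAA occurred in 2 (Akt2 and Lamtor4) and in 3.97% of all, and the FOXO-type element GTAAACAA in 1 (Akt1) and in 1.23% of all. A match is a string of letters and not a bound site. The genes with an E-box that also had a call in a kidney or a row in the cell table were Fnip1, Irs1 and Irs2, and their promoters are shown on the coding strand with the E-box in capitals:
Fnip1, chr11:54437929-54438228, plus strand: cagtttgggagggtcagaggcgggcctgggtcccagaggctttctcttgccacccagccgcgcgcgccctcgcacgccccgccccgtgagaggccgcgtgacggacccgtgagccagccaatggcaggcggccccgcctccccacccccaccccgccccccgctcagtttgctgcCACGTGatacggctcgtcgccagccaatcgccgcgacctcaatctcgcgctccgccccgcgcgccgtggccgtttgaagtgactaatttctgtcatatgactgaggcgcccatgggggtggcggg
Irs1, chr1:82291390-82291689, minus strand: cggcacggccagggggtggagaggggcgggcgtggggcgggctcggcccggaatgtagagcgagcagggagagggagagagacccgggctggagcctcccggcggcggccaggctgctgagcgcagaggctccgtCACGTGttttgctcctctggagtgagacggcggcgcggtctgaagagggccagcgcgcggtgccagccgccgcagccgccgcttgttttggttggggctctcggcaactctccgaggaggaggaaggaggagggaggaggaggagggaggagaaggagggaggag
Irs2, chr8:11008880-11009179, minus strand: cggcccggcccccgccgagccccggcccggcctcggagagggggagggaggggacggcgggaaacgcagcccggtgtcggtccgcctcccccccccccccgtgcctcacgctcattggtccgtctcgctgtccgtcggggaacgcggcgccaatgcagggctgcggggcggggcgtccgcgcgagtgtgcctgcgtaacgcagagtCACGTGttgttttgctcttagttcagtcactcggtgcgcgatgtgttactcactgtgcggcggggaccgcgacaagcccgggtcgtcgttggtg

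Counted from the RefSeq start, the E-box begins at -75 in Fnip1, -115 in Irs1 and -44 in Irs2. The 3 genes did not move alike: Fnip1 was lower and Irs2 higher in the gapmer-treated cells, and Irs1 fell in Pkd2 knockout kidneys, where Irs2 and Fnip1 overlapped with their controls.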

How the data were processed

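RNA was extracted with Trizol and libraries made with TruSeq kits, per the labels' protocols. The submitters' processing notes name STAR 2.4.2a, RSEM 1.2.22, Cufflinks 2.2.1, FastQC 0.11.2 and edgeR for the kidneys; for the cells they name DESeq2 1.12.3, SAMtools 1.0, Trimmomatic 0.32 and the same STAR, with build mm10 (GRCm38); what each did, and its settings, is not stated here. For the kidneys the authors deposited a signal that its values show to be estimated CPM over a factor per library; between 93.8% and 96.2% of values per library were whole multiples of 1 read within 0.02, Pkd1 control replicate 1 being the least certain. For the cells they deposited a signal of counts over size factors. The deposited log2 changes and adjusted p-values compare control minus knockout in kidneys and gapmer minus control in cells, as the values show, and the deposited likelihood ratio score was not used.

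The main test was limma 3.58.1 (trend, R 4.3.3) on log2(value + 1) over genes that reached 1 in 2 libraries or more, in 1 fit of 4 groups (4 residual degrees of freedom, prior 4.77), with Benjamini-Hochberg adjustment. Differences are on that scale, which understates low genes. Cell differences come from a limma fit over the deposited genes, for description only. The limma kidney fit was tested on simulated counts for the Pkd1 contrast only. Those counts had the same dispersion for every gene and no shifts between libraries. The other fits were not tested in this way. Exon lengths are unions of GENCODE M21 basic exons, promoters are RefSeq's. Alternatives were a pseudocount of 0.1, no filter, quantile scaling, edgeR 4.0.16 quasi-likelihood and DESeq2 1.42.0 on recovered reads rounded to whole numbers, each model alone, a replicate block, sex as a covariate, rescaling without mitochondrial genes and small RNAs, leaving out libraries 1 by 1, and a 2-fold minimum. The members and lists were chosen with earlier results of these data known. Values per library are given for members called or in the cell table and for Mtor, Rptor, Rictor, Tsc1, Tsc2 and Rheb, with at most 3 others per role, and the called genes of the further lists are named, except for some that are counted but not reported here.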

Additional observations from a re-analysis of the deposited data

How the results depend on the processing

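Counts of members called in the Pkd1 model (3) became 0 without the filter, 5 in DESeq2, 0 with a 2-fold minimum and 0 to 7 when 1 library was left out. Those of the Pkd2 model (3) became 0 with each model fitted alone, 5 with sex as a covariate, 1 with a 2-fold minimum and 0 to 6 without 1 library. In the control contrast (2) they became 4 in DESeq2, 1 with a 2-fold minimum and 0 to 4 without 1 library. Over all genes, the Pkd1 count of 1550 became 790 without the filter, 904 with a 2-fold minimum and 325 to 2474 without 1 library; the Pkd2 count of 2587 became 1379 with the model alone, 1345 with a 2-fold minimum and 621 to 4253; the control count of 1801 became 970 with a 2-fold minimum and 403 to 2553. For the difference between models, 1 gene became 5 with a pseudocount of 0.1, 0 without the filter, 8 with quantile scaling, 5 in edgeR, 184 in DESeq2, 0 with sex as a covariate, 19 after rescaling and 0 to 26 without 1 library, while no member was called in these settings. The cause of these changes was not tested, apart from the fewer genes and samples that some settings use by construction. Where a group kept 1 library, its spread was taken from the rest.

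Signs turned for Rheb in the Pkd1 model, to -0.0063 in edgeR, -0.0508 with sex, -0.0173 after rescaling and -0.109 to 0.127 without 1 library; for Rheb in the Pkd2 model, to 0.0331 after rescaling; and for Rptor in the Pkd2 model, where leaving out 1 library gave -0.634 to 0.0269. Replicate numbers were not taken to pair the kidneys. Correlations of same-numbered deviations ran from -0.378 to 0.339. Between control and knockout they were -0.378 in the Pkd1 model and -0.049 in the Pkd2 model. With 2 libraries a group these values cannot settle whether kidneys were paired. With the replicate block, 2, 2, 0 and 3 members were called in the Pkd1, Pkd2, difference and control contrasts, and 0 genes in all for the difference. Recovered reads per member and library ran from 29 (Rragb) to 11177 (Eif4b), and how far depth limits the calls was not tested; the cell table gives no library depth.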
